A study of Mus musculus with 6 samples.

Results

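The miR-7 family comprised 5 mature miRNAs, mmu-miR-7a-5p, mmu-miR-7a-1-3p, mmu-miR-7a-2-3p, mmu-miR-7b-5p and mmu-miR-7b-3p (written below without the species prefix), chosen by name among the 1915 mature miRNAs in the count files. All 5 had reads in each library and passed the minimum of 10 reads over the libraries, as did 1120 miRNAs in all. The study asked which miRNAs differ between female and male mouse brain before birth. Small RNA was sequenced from the whole brain of untreated wild-type C57BL/6 embryos at E15.5, in 3 female and 3 male libraries. Each library was made from RNA pooled over 2 to 3 embryos, so pools and not embryos were the replicates. In RNA of a whole organ, fewer cells of a type and less RNA per cell cannot be told apart.

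A miRNA hairpin is cut into a duplex of a 5p and a 3p arm. The arm that is loaded into an Argonaute protein, the guide, pairs through its seed with target mRNAs, and most copies of the other arm, the passenger, are degraded. miR-7 is known from neurosecretory and endocrine cells, including those of the hypothalamus, the pituitary and the pancreatic islets. In the brain it takes part in a circuit with the circular RNA Cdr1as, which carries many binding sites for miR-7, and with the long non-coding RNA Cyrano, which directs the destruction of miR-7.

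The mature sequences show which reads can be traced to a locus, since the guides of the Mir7-1 and Mir7-2 hairpins are identical and their passengers are not. Mature sequences of all 5 members were found in the RefSeq table for GRCm38.p6, and are written 5′ to 3′ with the seed, bases 2 to 8, in capitals.
miR-7a-5p: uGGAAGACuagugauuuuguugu
miR-7b-5p: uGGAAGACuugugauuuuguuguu
miR-7a-1-3p: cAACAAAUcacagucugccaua
miR-7a-2-3p: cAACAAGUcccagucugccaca
miR-7b-3p: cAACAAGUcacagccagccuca
With positions counted from 1 at the 5′ end, the guides miR-7a-5p and miR-7b-5p differ over their shared 23 bases by A10U, outside the seed, and miR-7b-5p is 1 base longer. They were the only miRNAs in the RefSeq table with the seed GGAAGAC. Between the passengers of Mir7-1 and Mir7-2 there are 3 differences, A7G, A10C and U21C, of which A7G lies in the seed. miR-7a-2-3p and miR-7b-3p share a seed and differ at 4 other positions. How many mismatches were allowed when reads were assigned to mature sequences is not given in the sources used here, so the division of reads between miR-7a-5p and miR-7b-5p rests on that setting.

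In mm9 (NCBIM37, gene models of GENCODE vM1) the Mir7-1 hairpin lies at chr13:58494140-58494247 on the minus strand, in an intron of Hnrnpk, which encodes an RNA-binding protein and lies on the same strand. miR-7a-5p takes up chr13:58494202-58494224 of it and miR-7a-1-3p chr13:58494161-58494182. The Mir7-2 hairpin, at chr7:86033163-86033259 on the plus strand, overlaps no annotated gene other than itself, and the nearest protein-coding gene is Aen, 7481 bases downstream. Its miR-7a-5p copy is at chr7:86033181-86033203 and miR-7a-2-3p at chr7:86033221-86033242. Mir7b, at chr17:56382411-56382521 on the plus strand, is also intergenic, 13695 bases from Fem1a. Its arms lie at chr17:56382440-56382463 for miR-7b-5p and chr17:56382478-56382499 for miR-7b-3p.

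Library totals ranged from 14802675 to 59362011 reads. Female library 2 stood apart, with the highest total and the fewest miRNAs detected (660, against 790 to 915 in the other 5). Of the markers of neurons, 23 of 24 had reads, and they summed to 231844 to 275701 counts per 1000000 reads of the library total (CPM) in female libraries and to 186205 to 214821 CPM in male libraries. The neuronal sum was thus higher in each female library, the direction of the miR-7 guides. It was carried by miR-9-5p (mean 187837 CPM in females and 158811 CPM in males) and miR-9-3p (41400 and 19491 CPM). Its members went both ways: miR-129-5p (mean 707 and 1034 CPM, named after its values were seen) was higher in each male library. Sums of other tissues' markers moved with sex opposite to the neuronal sum. The 4 skeletal muscle miRNAs summed to 388 to 1180 CPM in female libraries and 5497 to 6139 CPM in male libraries, and the 6 epithelial miRNAs to 429 to 1133 CPM and 7990 to 8284 CPM. The 7 blood cell miRNAs summed to 736 to 1387 CPM in females and 1637 to 2024 CPM in males, a sum carried by miR-486a-5p (mean 893 and 1744 CPM, named here after its values were seen). None of the other 6 blood cell miRNAs was called in the test of the sexes described below, and the median log2 fold change of that list, male over female, was -0.52. What part these markers had in the differences below was not tested. Counts are of reads, without molecular identifiers, so the Wilson intervals given below cover counting error only.

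The family took 1.34% to 2.50% of the reads of a female library and 0.838% to 0.853% of a male library. Guides made up 98.1% (library 1), 98.6% (2) and 99.1% (3) of the family's reads in females, against 96.3%, 96.8% and 96.6% in males. The passenger share was therefore below 2% in each female library and above 3% in each male library.

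miR-7a-5p, the guide of both miR-7a hairpins, had a level of 12941 CPM in female library 1, 11635 CPM in library 2 and 22622 CPM in library 3. Its level in males, in the same order, was 7268, 7169 and 7176 CPM. Every female library lay above every male library, with female library 3 highest, and the mean was 15733 ± 6002 CPM (SD, n = 3) in females, against 7204 ± 55.0 CPM (SD, n = 3) in males. Ranked within each library, it was the 10th to 19th most abundant miRNA in females and the 26th to 29th in males. How alike the male libraries were depended on the scaling. In CPM of the library total its coefficient of variation among them was 0.763%, the smallest among 553 miRNAs averaging 100 reads or more, whose median was 13.6%. After scaling by TMM (the trimmed mean of M-values), as used in the test of the sexes, it was 7.87%, the 110th smallest, with a median of 13.6%. Among female libraries it was 38.1% in CPM and 35.5% after TMM.

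miR-7b-5p, the guide of Mir7b, had levels of 1623, 1610 and 2154 CPM in females (libraries 1 to 3 in order, here and below), and of 947, 940 and 979 CPM in males. Its groups did not overlap either, and female library 3 was again the highest. The mean was 1796 ± 311 CPM (SD, n = 3) in females, against 955 ± 20.6 CPM (SD, n = 3) in males, and its rank was 68 to 75 in females and 104 in each male library. Over the 6 libraries, Pearson's r between both guides was 0.98 in log2 CPM scaled by TMM, a description only, since the points share libraries.

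Among the passengers, miR-7a-2-3p was the most abundant. Female levels were 226, 149 and 175 CPM and male levels 278, 235 and 259 CPM. Each male library thus lay above each female library, opposite in direction to miR-7a-5p, whose reads cannot be divided between Mir7-1 and Mir7-2. The mean of miR-7a-2-3p was 183 ± 38.8 CPM (SD, n = 3) in females, against 258 ± 21.7 CPM (SD, n = 3) in males. miR-7a-1-3p, the passenger from the Hnrnpk intron, had 46.5, 32.5 and 45.7 CPM in females, and 34.1, 34.1 and 25.0 CPM in males. Female library 2 lay within the male range for this arm. miR-7b-3p was rarest, at 3.58, 4.43 and 3.60 CPM in females and 0.963, 2.50 and 3.72 CPM in males, and its groups overlapped. Male library 1 held only 18 of its reads, which gives a 95% interval of 0.609 to 1.52 CPM.

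**Figure D1:**
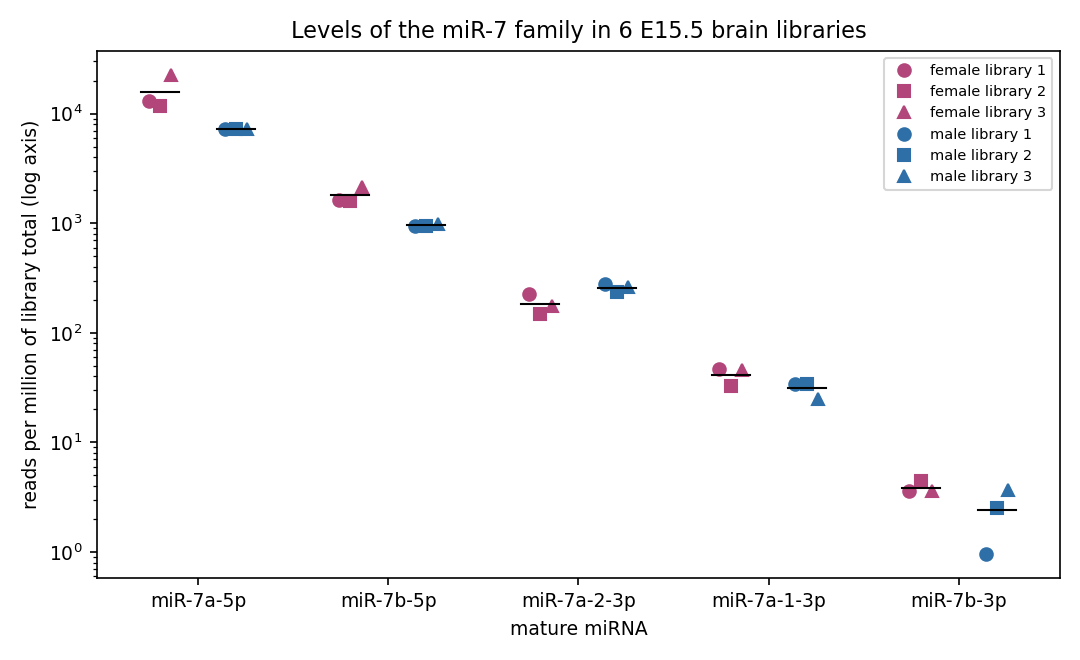
CPM of the library total (log axis) for the 5 members in each of 6 libraries, with a horizontal line at the mean of each sex. Both guides lie higher in the 3 female libraries than in the 3 male ones, miR-7a-2-3p lies the other way, and miR-7a-1-3p and miR-7b-3p overlap.

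The order of the members was the same in 6 of 6 libraries: miR-7a-5p, miR-7b-5p, miR-7a-2-3p, miR-7a-1-3p and miR-7b-3p. Mature arms of 22 to 24 bases are each read whole, so these levels were compared without scaling for length. They were not corrected for sequence either, and the arms run from 33.3% to 54.5% GC. The order and the ratios below are thus of reads, and how far they follow the amounts of each RNA was not tested. The ranges of neighbours in that order did not overlap over the 6 libraries. miR-7a-5p exceeded miR-7b-5p by a median of 7.65 times and miR-7b-5p exceeded miR-7a-2-3p by a median of 5.60 times, with miR-7a-2-3p above miR-7a-1-3p by 5.88 times and miR-7a-1-3p above miR-7b-3p by 12.8 times.

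In the comparison of the sexes, edgeR's quasi-likelihood test was run over the 1120 miRNAs after TMM scaling, with Benjamini-Hochberg adjustment. Log2 fold changes are male over female. Both guides were lower in males and no passenger passed the threshold of 0.05. Of the 5 members, 2 were called, against 8.48% of all miRNAs tested in either direction, and 17.0% of those averaging 100 reads or more. Both calls were higher in females, the direction of 5.27% of all miRNAs tested (3.21% were called in the other direction). Among the 553 averaging 100 reads or more, as all 5 members did, 59 were called higher in females and 35 higher in males. The median log2 fold change was -0.80 over the members, which is the value of miR-7b-3p, the member with the fewest reads (SE 1.20). It was -0.02 over all miRNAs tested and -0.08 over those averaging 100 reads or more.

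For miR-7a-5p the log2 fold change was -1.24 (SE 0.26, adjusted p = 0.00187), a level 2.37 times as high in females. For miR-7b-5p it was -1.03 (SE 0.20, adjusted p = 0.00079), or 2.05 times as high in females. Both calls were lost when male library 1 was left out, with log2 fold changes of -1.19 (adjusted p = 0.0907) and -0.97 (adjusted p = 0.0517). They were kept when any other single library was left out, female library 2 included. Both were also lost with an offset for the GC content of the mature sequences, described further on.

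The passengers were not called. The log2 fold change was 0.37 (SE 0.21, adjusted p = 0.364) for miR-7a-2-3p and -0.54 (SE 0.34, adjusted p = 0.449) for miR-7a-1-3p. For miR-7b-3p, with the fewest reads, it was -0.80 with an SE of 1.20 (adjusted p = 0.795), an SE larger than the log2 fold change of its guide. All 3 libraries of one sex lay on one side of the other for 3 of 5 members in CPM of the library total, where 23.9% of all miRNAs did so. After TMM scaling miR-7a-1-3p separated as well, giving 4 of 5 members against 23.8% of all miRNAs. Separation was more frequent among miRNAs averaging 100 reads or more, as all 5 members did: 226 of these 553 separated after TMM scaling.

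Shares within the family do not depend on how whole libraries are scaled. miR-7b-5p made up 11.1%, 12.2% and 8.70% of guide reads in females, against 11.5%, 11.6% and 12.0% in males. Female library 3, in which both guides were highest, had the lowest share. The mean was 10.7% ± 1.78 (SD, n = 3) in females, against 11.7% ± 0.256 (SD, n = 3) in males, a difference of 1.04 percentage points (two-sided exact permutation test, p = 0.5), within the spread between female libraries.

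The passengers name the hairpin from which a read came. miR-7a-1-3p made up 17.1%, 17.9% and 20.7% of the miR-7a passenger reads in females, against 10.9%, 12.7% and 8.78% in males. The sexes did not overlap, and the Wilson intervals of the nearest libraries, 15.9% to 18.3% in female library 1 and 12.1% to 13.3% in male library 2, did not meet. The mean was 18.5% ± 1.89 (SD, n = 3) in females, against 10.8% ± 1.94 (SD, n = 3) in males, a male minus female difference of -7.76 percentage points (two-sided exact permutation test, p = 0.1, the smallest that 3 libraries against 3 allow). miR-7a-2-3p thus made up most miR-7a passenger reads in each library, and a larger share of them in males. These passengers differ in GC content, and with the GC offset described further on their log2 fold changes drew closer together, from -0.54 to -0.18 for miR-7a-1-3p and from 0.37 to 0.10 for miR-7a-2-3p. miR-7b-3p made up 1.30%, 2.38% and 1.60% of all passenger reads in females and 0.307%, 0.922% and 1.29% in males (two-sided exact permutation test, p = 0.1). The gap between its nearest libraries, female 1 and male 3, was far inside their Wilson intervals of 0.994% to 1.69% and 1.05% to 1.59%.

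**Figure D2:**
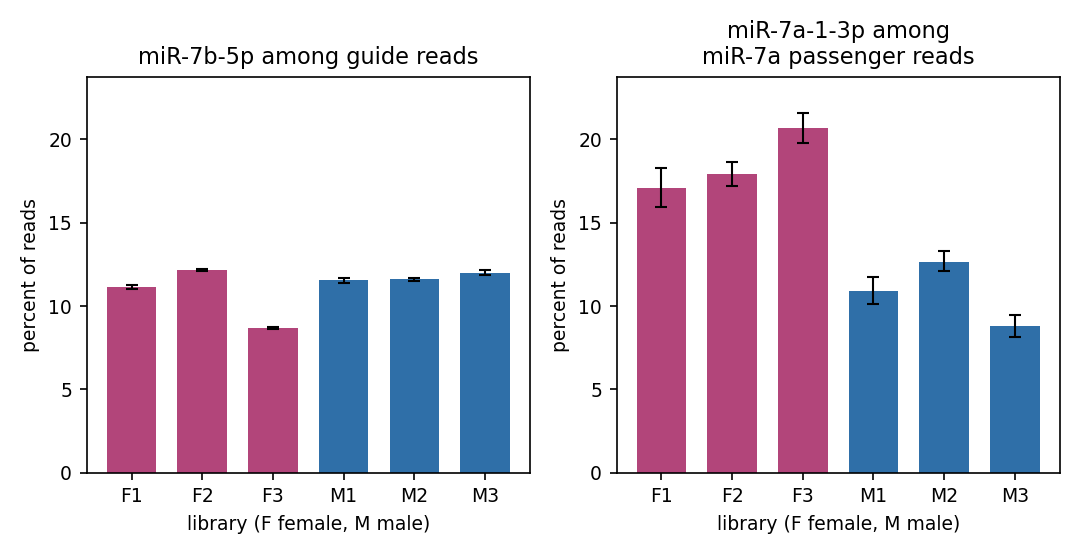
Share of miR-7b-5p in the guide reads (left) and of miR-7a-1-3p in the miR-7a passenger reads (right), in percent of reads in each library, with bars from 0 and 95% Wilson intervals. The first share overlaps between the sexes and the second lies at 17.1% to 20.7% in females and 8.78% to 12.7% in males.

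The balance of the arms was compared as reads of the guide per read of the passenger in each library. Per read of miR-7a-2-3p there were 57.4, 77.9 and 129 reads of miR-7a-5p in females, against 26.1, 30.5 and 27.7 in males. Each female ratio exceeded each male ratio. Per read of miR-7a-1-3p the numbers were 278, 358 and 495 in females and 213, 210 and 287 in males, which overlap. Because miR-7a-5p comes from both hairpins, it was also set against both passengers together, which gave 47.6, 64.0 and 102 in females and 23.2, 26.6 and 25.2 in males. Per read of miR-7b-3p there were 453, 363 and 598 reads of miR-7b-5p in females and 983, 375 and 263 in males, a wide overlap in which the highest value rests on the 18 passenger reads of male library 1.

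**Figure D3:**
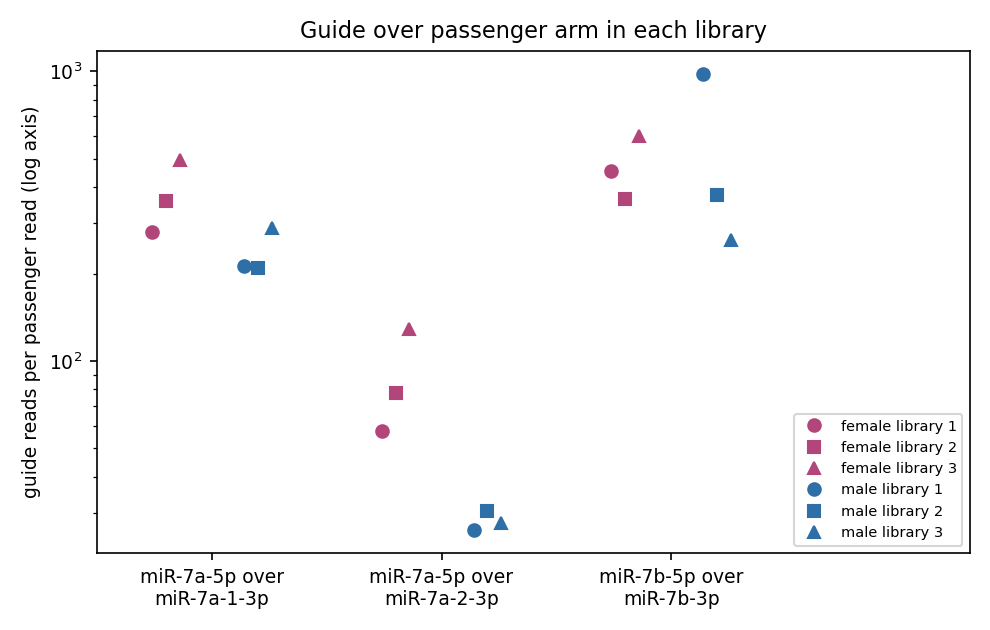
Guide reads per passenger read (log axis) for the 3 precursors in each of 6 libraries. The ratio of miR-7a-5p to miR-7a-2-3p lies at 57.4 to 129 in females and 26.1 to 30.5 in males, while the other ratios overlap between the sexes.

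These log2 ratios, with 0.5 added to both counts, were tested with limma over 411 pairs of arms. None of the 411 pairs was called (0.00%), although 56 had an unadjusted p below 0.05. The ratio of miR-7a-5p to miR-7a-2-3p was lower in males by a log2 difference of -1.57 (SE 0.29), a factor of 2.97, and had the lowest unadjusted p of all pairs, 0.000262, and an adjusted p of 0.0855 in limma. It was past the threshold when both arms had to have at least 10 reads in every library (adjusted p = 0.0117 in limma, with 21 of 185 pairs called) and without female library 2 (adjusted p = 0.000959, with 42 of 407 pairs called). It was not past the threshold without any of the other 5 libraries (adjusted p = 0.0747 to 0.403 in limma) or without the variance trend (SE 0.46, adjusted p = 0.517). For miR-7a-5p over miR-7a-1-3p the log2 difference was -0.65 (SE 0.33, adjusted p = 0.448 in limma), and for miR-7b-5p over miR-7b-3p it was -0.02 (SE 0.94, adjusted p = 0.988 in limma).

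The guides and the passengers of the family differ in base composition. GC content is 34.8% in miR-7a-5p and 33.3% in miR-7b-5p, 40.9% in miR-7a-1-3p, and 54.5% in both miR-7a-2-3p and miR-7b-3p. Mature sequences were at hand for 951 of the 1120 miRNAs tested. Across the 474 of them averaging 100 reads or more, GC content and the log2 fold change had a Pearson's r of 0.32, a description across miRNAs that share libraries.

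By classes of GC content, whose bounds were set after seeing the data, 34 of the 126 miRNAs with at most 41% GC were higher in females (27.0%) and 8 were higher in males (6.35%). Of the 230 with at least 50% GC, 3 were higher in females (1.30%) and 19 in males (8.26%). The median log2 fold change was -0.56 in the first class, which holds both guides and miR-7a-1-3p, and 0.18 in the second, which holds the other 2 passengers. The median deviation of the first class from its mean over libraries was 0.30, -0.01 and 0.59 log2 units in the female libraries and -0.32, -0.16 and -0.24 in the male ones, so female library 3, with the highest guide levels, also had the highest median for miRNAs of low GC content.

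**Figure D4:**
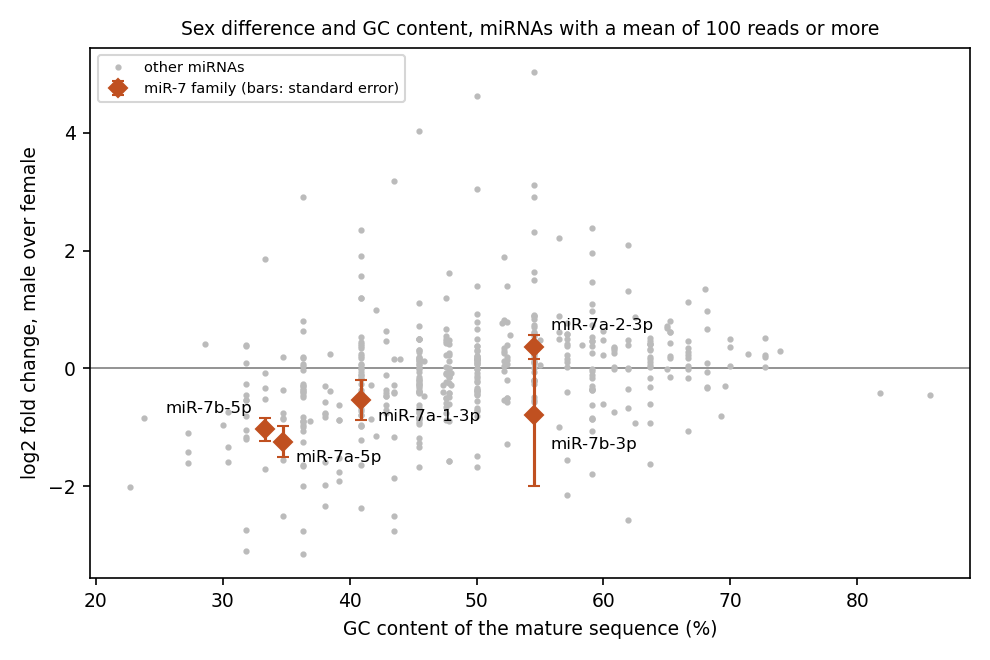
Log2 fold change of male over female against the GC content of the mature sequence in percent, for miRNAs averaging 100 reads or more (grey) and the 5 members (diamonds, with standard errors). The guides, at 33.3% and 34.8% GC, have log2 fold changes of -1.03 and -1.24, and miR-7a-2-3p, at 54.5%, has 0.37.

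With a loess offset for GC content in each library, the log2 fold change in edgeR's test was -0.62 for miR-7a-5p (SE 0.23, adjusted p = 0.153) and -0.40 for miR-7b-5p (SE 0.21, adjusted p = 0.388). Neither guide was then called. That of miR-7a-2-3p became 0.10 (adjusted p = 0.889) and that of miR-7a-1-3p -0.18 (adjusted p = 0.870). The log2 difference in the ratio of miR-7a-5p to miR-7a-2-3p was -0.71 with the offset on both arms (adjusted p = 0.411 in limma). The offset gave 54 calls over all miRNAs, 24 of them higher in females and 30 higher in males, against 59 and 36 without it. The shift of miRNAs of low GC content moves with sex over these libraries, and the share of each in the difference of the guides cannot be told apart.

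**Figure D5:**
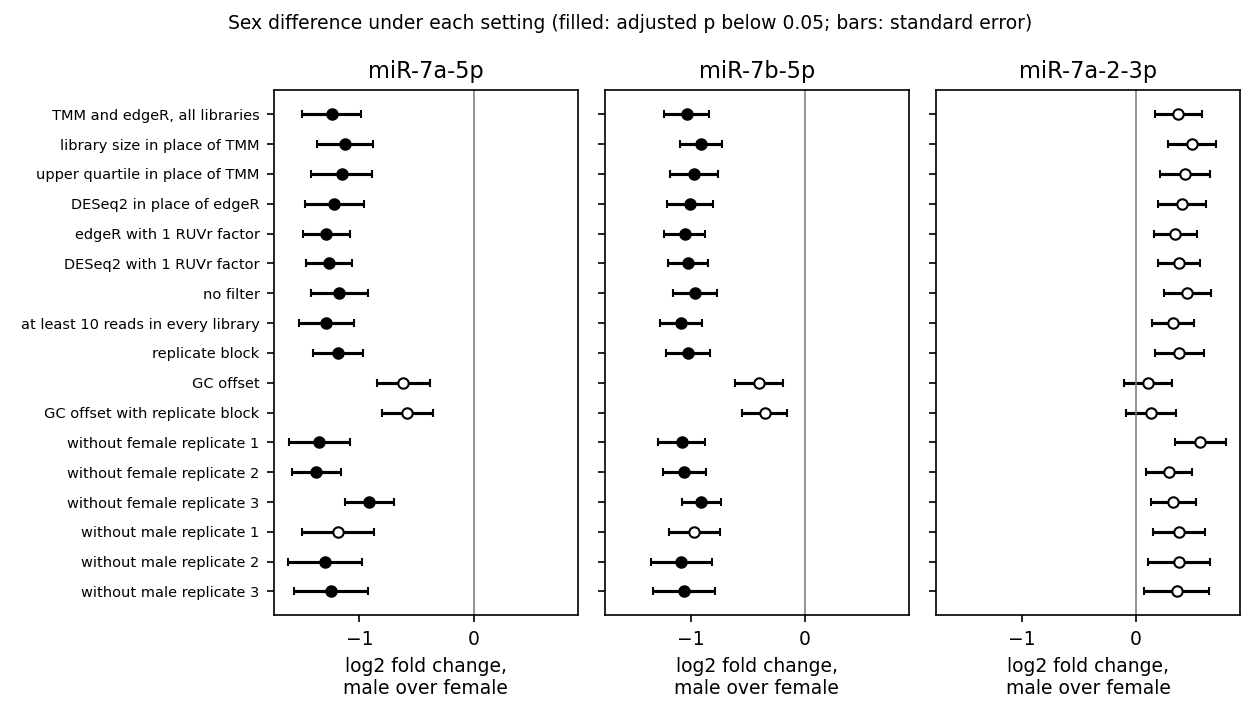
Log2 fold change of male over female with its standard error for miR-7a-5p, miR-7b-5p and miR-7a-2-3p under each setting, with filled points where the adjusted p was below 0.05. Both guides lie below 0 throughout and are open points with the GC offset, with or without the replicate block, and without male replicate 1.

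miRNAs tied to miR-7 by function or cell type were read from fixed lists, chosen with earlier results of these data known. miR-671 directs the cutting of Cdr1as, and neither of its arms was called. miR-671-5p had 12.4, 26.6 and 14.6 CPM in females, against 11.1, 19.4 and 17.6 CPM in males (log2 fold change -0.29, adjusted p = 0.818 in edgeR). For miR-671-3p it was 0.23 (adjusted p = 0.798 in edgeR). Both arms overlapped between the sexes.

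miR-375, like miR-7 a miRNA of endocrine cells, was not called. miR-375-3p had 260, 196 and 172 CPM in females, against 248, 216 and 274 CPM in males, so that the sexes overlapped and female library 3, highest for both guides, was lowest (log2 fold change 0.11, adjusted p = 0.850 in edgeR). No read of miR-375-5p was found in any library, which allows at most 0.0505 to 0.203 CPM by the limit of 3 reads. The miRNAs read from the strand opposite Mir7-2 were not analysed here.

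Of the 23 neuronal miRNAs tested, 5 were called higher in females and 0 in males, with a median log2 fold change of -0.17. Over all miRNAs tested the shares were 5.27% and 3.21%, and 59 and 35 of the 553 averaging 100 reads or more. Members without a call went both ways, with miR-129-5p higher in each male library in CPM. The most abundant neuronal miRNAs were miR-9-5p (log2 fold change -0.36, adjusted p = 0.555 in edgeR) and miR-9-3p (-1.20, adjusted p = 0.00508 in edgeR). They are both arms of miR-9, which has several loci and is active in neural progenitors. The call of miR-9-3p was lost with the GC offset (-0.50, adjusted p = 0.420 in edgeR) and without male library 1 (-1.08, adjusted p = 0.0955). In the lists of other tissues, 4 of 4 skeletal muscle, 5 of 6 epithelial and 1 of 7 blood cell miRNAs were higher in males. Their medians were 2.91, 2.63 and -0.52, and 0 of these 17 were higher in females. Of all miRNAs tested, 3.21% were higher in males. As these lists were chosen with earlier results of these data known, their counts are a description only.

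The miRNAs whose levels ran closest to those of the guides over the 6 libraries were sought among 552 others averaging 100 reads or more, by Pearson's r in log2 CPM. Closest to miR-7a-5p were miR-29a-3p (r = 0.99), miR-16-5p (0.99), miR-1251-5p (0.99), miR-335-5p (0.99) and miR-872-5p (0.98). Closest to miR-7b-5p were miR-376c-3p (r = 0.99), miR-99a-5p (0.99), miR-382-3p (0.99), miR-34c-5p (0.98) and miR-217-5p (0.98). Their log2 fold changes ranged from -1.59 to -0.59, a sign that follows from choosing them by r with guides that were lower in males. Where a mature sequence was at hand, their GC content ran from 30.4% (miR-335-5p) to 57.1% (miR-1251-5p). No miRNA was among the 5 closest to both guides, which rests on the cut at 5, since r between the guides was 0.98. Over the same 6 libraries, r with miR-7a-5p was 0.82 for miR-7a-1-3p, 0.58 for miR-7b-3p and -0.84 for miR-7a-2-3p.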

How the data were processed

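Small RNA from 3 female and 3 male pools of whole brain was sequenced in single-end reads. The authors trimmed adaptors with cutadapt 1.15, mapped reads with Bowtie 1.2.1 to miRBase 21 and mm9, quantified them with miRDeep2, and deposited raw read counts per mature miRNA, without normalization. No 2 libraries were copies of each other.

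The members and lists were chosen with earlier results of these data known. miRNAs with at least 10 reads over 6 libraries (1120) were tested for sex with edgeR 4.0.16 (R 4.3.3), with TMM scaling. Ratios of arms were tested with limma 3.58.1 and a variance trend, and shares with an exact permutation test (scipy 1.17.1). A threshold of 0.05 applied to Benjamini-Hochberg adjusted p. Named miRNAs were the members, all miRNAs of the antisense, miR-671 and miR-375 lists, the 2 most abundant neuronal miRNAs, any miRNA with the miR-7 seed, and the 5 closest to each guide by Pearson's r (log2 CPM, prior count 2).

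Alternatives were library size and upper quartile scaling, DESeq2 1.42.0, 1 RUVr factor (a factor of unwanted variation, from residuals), other filters, a replicate block, a loess offset for the GC content of the mature sequence, and each library left out in turn. The GC offset for arm ratios was added after seeing the data. The procedures were tested on simulated data, and the outcome is not given here. Depth per library, 14802675 to 59362011 reads, sets the counting error, which the 95% Wilson intervals cover. These intervals leave out the spread between pools.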

Additional observations from a re-analysis of the deposited data

How the results depend on the processing

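Both guides were lower in males under each of the 16 alternatives run, and 13 of these kept the call for each guide. With the GC offset and the replicate block the log2 fold change was -0.58 for miR-7a-5p (adjusted p = 0.0907) and -0.35 for miR-7b-5p (adjusted p = 0.454), and with the GC offset alone -0.62 and -0.40. Without male library 1 the values were -1.19 and -0.97, and over the libraries left out in turn they ranged from -1.38 to -0.91 for miR-7a-5p and from -1.08 to -0.91 for miR-7b-5p.

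The number of miRNAs called, 95, became 189 with 1 RUVr factor in edgeR, 216 with it in DESeq2, 54 with the GC offset, and 30 to 203 with 1 library left out (203 without female library 2, 60 without female library 3, 30 without male library 1). Library size in place of TMM gave 39 calls higher in females and 50 higher in males. It moved the median of all miRNAs from -0.02 to 0.11, and 1 RUVr factor moved it to 0.22 in edgeR and 0.24 in DESeq2.

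Replicate numbers did not pair the libraries: deviations from the group means correlated at -0.05, -0.01 and 0.05 between libraries of the same number. The replicate block gave 92 calls and kept those of both guides. For miR-7a-5p over miR-7a-2-3p it gave the same log2 difference of -1.57 with an adjusted p of 0.00364 in limma, with 10 of 411 pairs called. Since no pairing by number was seen, that p shows only how the result moves with the setting. The filter of 10 reads in every library also gave -1.57 (adjusted p = 0.0117), and libraries left out in turn gave -1.84 to -1.25, past the threshold in 1 of 6 cases (-1.62 without female library 2, adjusted p = 0.000959) and with adjusted p up to 0.403 in the others. The adjusted p was 0.517 without the variance trend and 0.381 with the GC offset and the replicate block (-0.71). For miR-9-3p the GC offset with the block gave -0.44 (adjusted p = 0.432).

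The ratio of miR-7b-5p to miR-7b-3p had no stable direction, with 0.90 under the GC offset, with or without the replicate block, and -0.56 to 0.38 with libraries left out. Small values that changed sign without a call were those of miR-375-3p without female library 3 (-0.029, in a range of -0.029 to 0.32 with libraries left out), miR-671-5p without female library 2 (0.20, in a range of -0.52 to 0.20), miR-671-3p with the GC offset (-0.0031), and miR-9-5p with the GC offset (0.20) and with the GC offset and the replicate block (0.24). miR-7b-3p had the fewest reads of the members, 18 to 263 per library, and its SE was 1.20, or 0.61 with at least 10 reads in every library.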
